A study of Mus musculus with 4 samples.

Results

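Conventional dendritic cells (cDCs) were examined in single-cell RNA sequencing of healing mouse skin. The cells were chosen by their measured UMI counts, as those with at least 20 UMIs of the class II genes H2-Aa, H2-Ab1 and H2-Eb1 together and a UMI of at least 2 of the 6 genes Flt3, Zbtb46, Cd209a, Clec10a, Xcr1 and Clec9a. A UMI is a molecular tag that counts each captured transcript once. Cells with 10 or more UMIs of C1qa, C1qb and C1qc together, with any Cd3g or Cxcl9, or with 3 or more of the maturation genes Ccr7, Fscn1, Ccl22, Cacnb3 and Il4i1 were left out. The rule found 160 cDCs among 6443 kept cells (2.48%), of 7178 cells in the deposited matrices. A cell was kept when it had between 200 and 3000 genes detected and no more than 10% of its UMIs on mitochondrial genes.

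cDCs take up antigen in tissues and present it to T cells on class II molecules. Their growth depends on the receptor tyrosine kinase Flt3, and Zbtb46 is a transcription factor that separates them from monocytes and macrophages. The cDC1 lineage carries Xcr1 and Clec9a, depends on Irf8 and Batf3 and is known for presenting engulfed material to CD8 T cells, while the cDC2 lineage carries Cd209a, Clec10a, Sirpa and Irf4 and mainly primes CD4 T cells. On maturation, dendritic cells gain the chemokine receptor Ccr7, which guides them from the skin to the draining lymph node.

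The skin came from around punch wounds of C57/BL6j mice, 6 weeks old, a week after wounding, with 1 droplet 3′ library per mouse. The 2 Control libraries (1 and 2) came from mice injected with PBS, and the 2 hucMSC-Exo libraries (1 and 2) from mice injected under the skin with exosomes of human umbilical cord mesenchymal stem cells. All 4 mice carried the same wound, and no group was unwounded. Under tissue, the labels name gut segments, whereas their cell type entry and protocol name skin. Sample titles gave the groups and replicate numbers. Letters in the matrix names would pair the libraries differently, so each treatment direction below holds only if the titles are right.

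The kept cells held 4779405 to 11243740 UMIs per library, with medians of 3747 to 4392.5 UMIs per cell. The cDCs were deeper, with median UMIs per cell of 9917 and 11899 in the 2 Control libraries and 9033 and 9602 in the 2 hucMSC-Exo libraries. Summed over the cDCs, the libraries gave 152438, 780986, 230409 and 490093 UMIs in the same order. A UMI of Ptprc, the leukocyte marker CD45, was found in 81.5 to 87.7% of the deposited cells. The matrices thus hold mostly immune cells. They hold fewer cells than the study counts for these mice, but its counts are of all cells and not of immune cells alone. Each share below is a share of the kept cells of these matrices and not of the skin. Any pair of libraries shared at most 2 cell barcodes, and all 160 cDC barcodes were distinct. The unit of level used below, CPM, scales a gene's summed UMIs to a total of 1000000 UMIs for the population in that library. Control 1 held only 16 cDCs and stood apart in several genes, among them Hspa1a, an inducible heat shock gene, at 1430 CPM against 62.7 to 294 in the other libraries, and Csf2rb, the shared receptor chain for GM-CSF, IL-3 and IL-5, at 328 against 1319 to 1785. For Hspa1a, whose direction turned without that library, the value without it is also given.

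The genes of the rule describe the cells and are not findings. Clec10a, a lectin, was detected in 134 of the 160 cDCs, Cd209a in 122, Flt3 in 85, Zbtb46 in 22, and Xcr1 and Clec9a in 11 each. The most frequent combinations were Cd209a with Clec10a alone in 56 cells (35%) and the same pair with Flt3 in 37. Among 2388 T cells, with median UMIs of 3383 to 4469 per library, Clec10a, Cd209a and Clec9a were each found in 2 cells, Flt3 in 1, Xcr1 in 15 and Zbtb46 in 54 (2.26%). The class II sum had medians of 264, 418, 303.5 and 319 UMIs per cDC in the 4 libraries, and ran from 23 to 759. Close to the limits of the rule, 7 cDCs had a class II sum of 20 to 39 and 6 cells just outside had 10 to 19. Exactly 2 of the 6 genes were seen in 103 cDCs, while 117 cells met the rest of the rule with 1 of them. No C1q UMI was seen in 153 cDCs, and 33 cDCs had 2 of the maturation genes against 6 cells just outside with 3.

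Markers of lymphocytes were near 0 in the cDC sums. The T cell list came to 0 to 1.28 CPM per library, with Cd3d, Cd3e, Trbc2 and Trdc at 0, and the B cell list to 0 to 3.84 CPM. The list for innate lymphoid and NK cells came to 12.8 to 28.6 CPM, with Ncr1, Gata3 and Klrb1c at 0. Macrophage genes summed to 943 to 2316 CPM, mostly Lyz2, Apoe, Cd68 and Mrc1, while Mertk was at 0 in every cDC. The monocyte list summed to 651 to 1804 CPM, with Chil3 at 0. Keratinocyte genes came to 257 to 623 CPM, and Krt14 was found in 125 of 160 cDCs (78.1%) and in 1885 of 2388 T cells (78.9%). The Langerhans cell list (Cd207, Epcam, Cldn1 and Mfge8) came to 26.2 and 233 CPM in the Control and 47.7 and 212 CPM in the hucMSC-Exo libraries. At least 2 of its genes were held by 14 cDCs, 7 of them in hucMSC-Exo 2. Of this list, Cd207 was confined to 3 cells of Control 2, with 74 UMIs in all.

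A small set of the cDCs did not carry the label well. A group of 12 cells (7.5%) held at least 2 of Siglech, Klk1, Ccr9 and Cox6a2, genes known from plasmacytoid dendritic cells, the cells specialised in type I interferon. This cut was chosen after the values were seen. The plasmacytoid list fixed beforehand also has Tcf4 and Bst2, and 59 of the 160 cDCs held at least 2 of its 6 genes. The size of the group thus depends on which genes make the cut. Siglech alone was found in 15 cDCs. Of the 12 cells, the 4 libraries gave 1, 5, 1 and 5. Their class II sums of 23 to 57 UMIs (median 37.5) lay at the bottom of the range, against 37 to 759 (median 370) in the other 148 cDCs, and they made up 6 of the 7 cells with sums of 20 to 39. Clec10a was detected in all 12, Cd209a and Flt3 in 9 each, Clec9a in 3 and Ccr7 in none. Cd209d, from outside the rule, was found in 11 of them. They held 205 of the 208 Siglech UMIs and 287 of the 399 Ly6c2 UMIs of all cDCs.

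These 12 cells also carried other genes known from plasmacytoid cells. Spib, a transcription factor of that lineage, stood at 629 CPM against 7.68 in the other cDCs, and Tcf4, its master regulator, at 651 against 117. Bst2, a tetherin on their surface, stood at 4534 CPM against 179, and Irf8 at 2375 against 186. The light chain constant gene Iglc3 had 46 UMIs in these cells and none in the other 148, at least 260-fold higher when 3 UMIs are set for the group at 0. In contrast, Ifitm1, S100a4 and Il1b had no UMI in the 12 cells, while the others held 4786, 3891 and 3360 CPM. The class II invariant chain Cd74 was at 5055 CPM against 19954. The cells are therefore described as cDCs by the rule only. Counts of called genes in the comparisons with other populations are given also without them.

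The cDC share of kept cells overlapped between the groups at the depth of the files. It was 1.68% in Control 1 (16 of 952 cells, 95% exact Clopper-Pearson interval 0.964 to 2.71%), 3.23% in Control 2 (67 of 2074, 2.51 to 4.08%), 1.84% in hucMSC-Exo 1 (26 of 1416, 1.20 to 2.68%) and 2.55% in hucMSC-Exo 2 (51 of 2001, 1.90 to 3.34%). Such intervals cover counting error only. The means were 2.46% ± 1.10 (SD, n = 2) in Control and 2.19% ± 0.504 (SD, n = 2) in hucMSC-Exo, a difference of -0.263 percentage points that was smaller than the spread between the Control libraries (two-sided exact permutation test, p = 1, where 2 libraries against 2 cannot go below 0.333). Leaving out 1 library at a time moved the difference between -1.04 and 0.512 percentage points. Without the 12 cells with plasmacytoid genes the shares were 1.58%, 3.00%, 1.77% and 2.30%. With every cell thinned to 1500 UMIs the rule kept 6, 10, 6 and 9 cDCs, or 0.667% and 0.519% in Control and 0.452% and 0.486% in hucMSC-Exo. The groups did not overlap there and Control 1 was the highest library, where unthinned it was the lowest (difference -0.124 percentage points, two-sided exact permutation test, p = 0.333, the smallest this design allows).

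**Figure D1:**
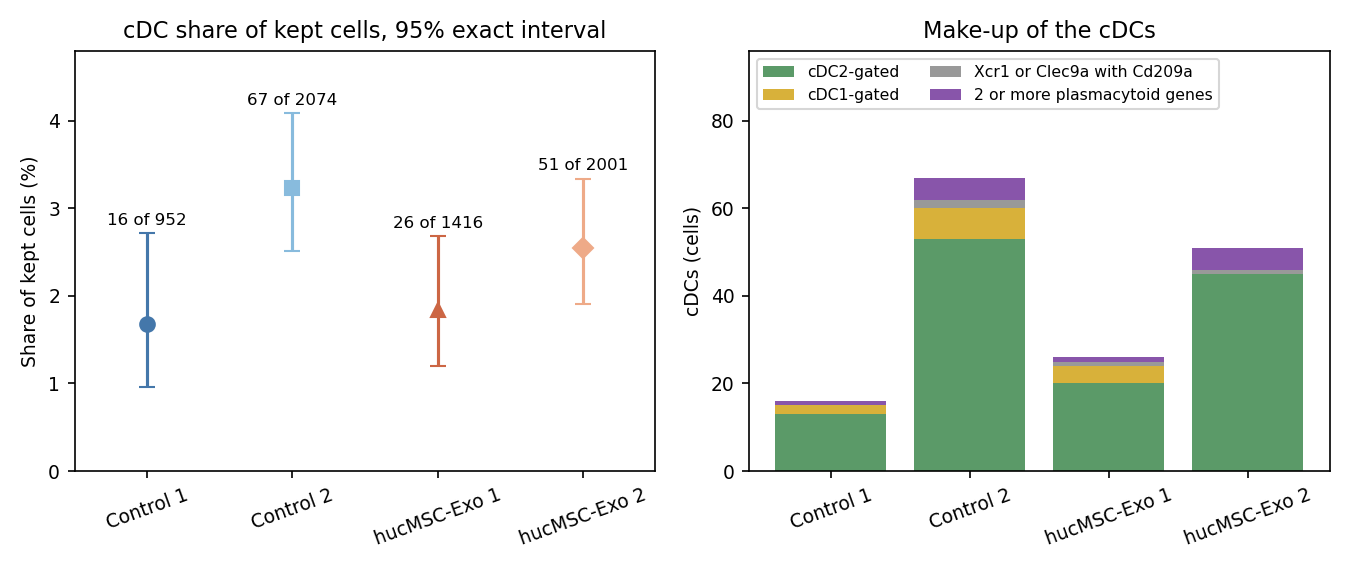
Left, cDCs as a percentage of kept cells in each library, with bars for the 95% exact interval of counting error and the cell counts above them. Right, the number of cDCs per library by subset gate, with the 12 cells that held at least 2 plasmacytoid genes drawn apart; Control 2 lies highest at 3.23%, and hucMSC-Exo 2 holds no cDC1-gated cell.

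Most cDCs fell on the cDC2 side. A cell was taken as cDC1-gated when it had Xcr1 or Clec9a and no Cd209a, and as cDC2-gated when it had Cd209a or Clec10a and neither of the cDC1 genes. The cDC2 gate took 14 and 56 cells in the Control and 21 and 49 in the hucMSC-Exo libraries, 140 in all, and the cDC1 gate took 2, 7, 4 and 0 in the same order, 13 in all. Another 7 cells had a cDC1 gene together with Cd209a. cDC1-gated cells made up 12.5%, 10.4%, 15.4% and 0% of the cDCs, and the 0 of 51 cDCs in hucMSC-Exo 2 allows a share of up to 5.88% when 3 cells are set for 0 (exact 95% interval 0 to 6.98%). The means were 11.5% ± 1.45 (SD, n = 2) and 7.69% ± 10.9 (SD, n = 2), and the groups overlapped (difference -3.78 percentage points, two-sided exact permutation test, p = 1). With so few cells, the difference turned to 3.91 percentage points without hucMSC-Exo 2 and was -11.5 without hucMSC-Exo 1. No cDC1-gated cell was among the 31 cDCs left after thinning to 1500 UMIs, too few to read a share from.

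No test of cDC1-gated against cDC2-gated cells could be made, since no library held 10 cDC1-gated cells, and the values below describe these cells only. They leave out the 12 cells with plasmacytoid genes, and compare 13 cDC1-gated cells from 3 libraries (median 12566 UMIs) with 131 cDC2-gated cells (median 10382 UMIs). Cst3, the protease inhibitor cystatin C, stood at 20174 CPM in the cDC1-gated cells against 2710, 7.44-fold higher, and its level was higher in each of the 3 libraries that held both. The cDC1 transcription factor Batf3 was at 62.1 CPM against 4.42, Irf8 at 565 against 145 and Id2, which is needed for the cDC1 lineage, at 1360 against 493. Genes used in antigen handling by cDC1 were on the same side. Wdfy4, which is required for cross-presentation, was found in 12 of 13 against 38 of 131 cells, Naaa, a lysosomal amidase, in 11 against 51, and Ppt1, a lysosomal thioesterase, in 12 against 43. The integrin Itgae, known as CD103, was 40.8-fold higher (29 UMIs in 9 cells against 6 UMIs in 5), and the surface glycoprotein Cd24a was found in 13 of 13 against 36 of 131 cells. Of the other markers fixed for cDC1, Cadm1 had 1 UMI and Tlr3 none in these 13 cells.

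Of 10 listed cDC1 genes with at least 40 UMIs over both sets, all 10 were higher in the cDC1-gated cells, and of 20 listed cDC2 genes all 20 were higher in the cDC2-gated cells. Of all 3493 genes at that level, 43.2% were higher in the cDC1-gated and 56.8% in the cDC2-gated cells. Clec12a, a listed cDC2 gene below that level, went the other way, with 6 UMIs in the cDC1-gated and 5 in the cDC2-gated cells. S100a4, a calcium-binding protein, stood at 4328 CPM against 422 in the cDC1-gated cells and was found in all 131 cells against 6 of 13. The integrin Itgam (CD11b) was at 105 CPM against 12.4 and Sirpa at 60.4 against 12.4, each on 2 UMIs in the cDC1-gated cells, and Mgl2, a galactose-binding lectin, at 707 against 217. The cytokine gene Il1b was at 3690 CPM against 1137, and Vegfa at 319 against 24.8. Klrd1, which encodes the lectin-like receptor chain CD94, was found in 91 of 131 cells against 3 of 13. Cd209d, a lectin gene of the same cluster as Cd209a, had 305 UMIs in 47 cDC2-gated cells and none in the cDC1-gated cells, at least 12.1-fold higher. Irf4 was low in both, at 36.8 and 12.4 CPM, and Cd74 was alike, at 20193 and 18479 CPM.

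**Figure D2:**
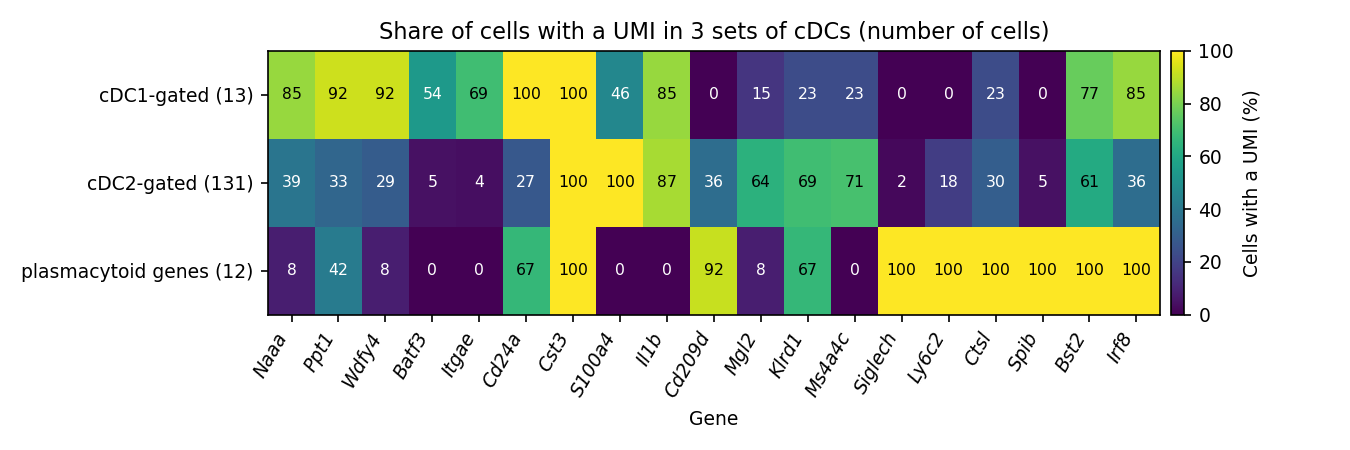
Percentage of cells with at least 1 UMI of each gene, by column, in the cDC1-gated cells, the cDC2-gated cells and the 12 cells with plasmacytoid genes, by row; the 12 cells were left out of the other rows. Batf3 and Itgae fill in the cDC1 row, S100a4 and Ms4a4c in the cDC2 row, and Spib and Ctsl reach all 12 cells of the last row.

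Ccr7 divided the cDCs although none of them had 3 of the maturation genes. It was found in 5 of 16, 40 of 67, 17 of 26 and 34 of 51 cDCs (31.3%, 59.7%, 65.4% and 66.7%), and in 56 of 768 C1q macrophages (7.29%). Of the cDCs kept after thinning to 1500 UMIs, 2 of 6, 7 of 10, 3 of 6 and 6 of 9 had Ccr7. Ccr7 is a gene of the rule and sets this split, so the values below are a description with no test. Among the 148 cDCs without plasmacytoid genes, 96 cells had Ccr7 (median 11167.5 UMIs) and 52 had none (median 9464 UMIs). Of these, 5 and 10 came from Control 1, 40 and 22 from Control 2, 17 and 8 from hucMSC-Exo 1 and 34 and 12 from hucMSC-Exo 2. Ccr7 was found in 4 of the 13 cDC1-gated cells, so the split also separates the subsets in part.

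The cells with Ccr7 had more of all 13 listed maturation genes outside the rule that held at least 40 UMIs, where 47.6% of all 3556 such genes were higher with Ccr7. All 13 were also lower in the cDC1-gated than in the cDC2-gated cells. How far the subset make-up accounts for the split was not tested. The survival gene Bcl2a1b, whose reads may be shared with its near copies, was at 550 CPM against 42.5 and was higher in 4 of 4 libraries. Tbc1d4, which regulates vesicle traffic, was at 457 CPM against 52.7, Pgf, a growth factor of the VEGF family, at 612 against 113, and the axonemal dynein gene Dnah2 at 252 against 26.3. Relb, the NF-κB subunit used in dendritic cell maturation, was at 83.3 CPM against 20.3 and the adaptor Samsn1 at 914 against 233, each higher in 4 of 4 libraries. Of 7 costimulation and checkpoint genes with enough UMIs 6 were higher with Ccr7 and Tnfsf9 lower. Cd80 was at 164 CPM against 54.7, Cd274 (PD-L1) at 276 against 124 and Cd83 at 699 against 401. Among the 6, Cd80, Cd83 and Cd86 were also counted in the 13 maturation genes. Il1b was at 4252 CPM against 1430. Other genes known from the fully mature state were low on both sides, with Cd200 at 0.936 and 6.08 CPM, Socs2 at 13.1 and 4.05 and Cd40 at 21.5 and 24.3.

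On the other side, the cells without Ccr7 had more of the monocyte chemokine receptor Ccr2, at 312 CPM against 75.8, of the pore-forming gene Mpeg1, at 239 against 56.2, and of Lyz2, at 1244 against 458. Each was higher without Ccr7 in 4 of 4 libraries. Rab7b, a lysosomal GTPase, was at 130 CPM against 12.2. It was also high in the cDC1-gated cells, which held 44 of its UMIs against 33 in the cDC2-gated cells. Heat shock and immediate early genes were higher without Ccr7 for 13 of 15, where 52.4% of all 3556 genes were. Hspa1a was at 535 CPM against 120 and Hspa1b at 466 against 84.3, each higher without Ccr7 in 3 of 4 libraries. Hspa1a was highest in Control 1, which gave 10 of the 52 cells without Ccr7 and 5 of the 96 with it. Spp1 was at 205 CPM without Ccr7 against 34.6. Fcgr1, the high-affinity IgG receptor that marks monocyte-derived cells, was at 44.6 CPM against 6.55 on 22 and 7 UMIs, with its highest level in Control 1. Cd209a was level, at 406 CPM with Ccr7 and 401 without, and Cd74 was at 20981 and 17731 and higher in 4 of 4 libraries.

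**Figure D3:**
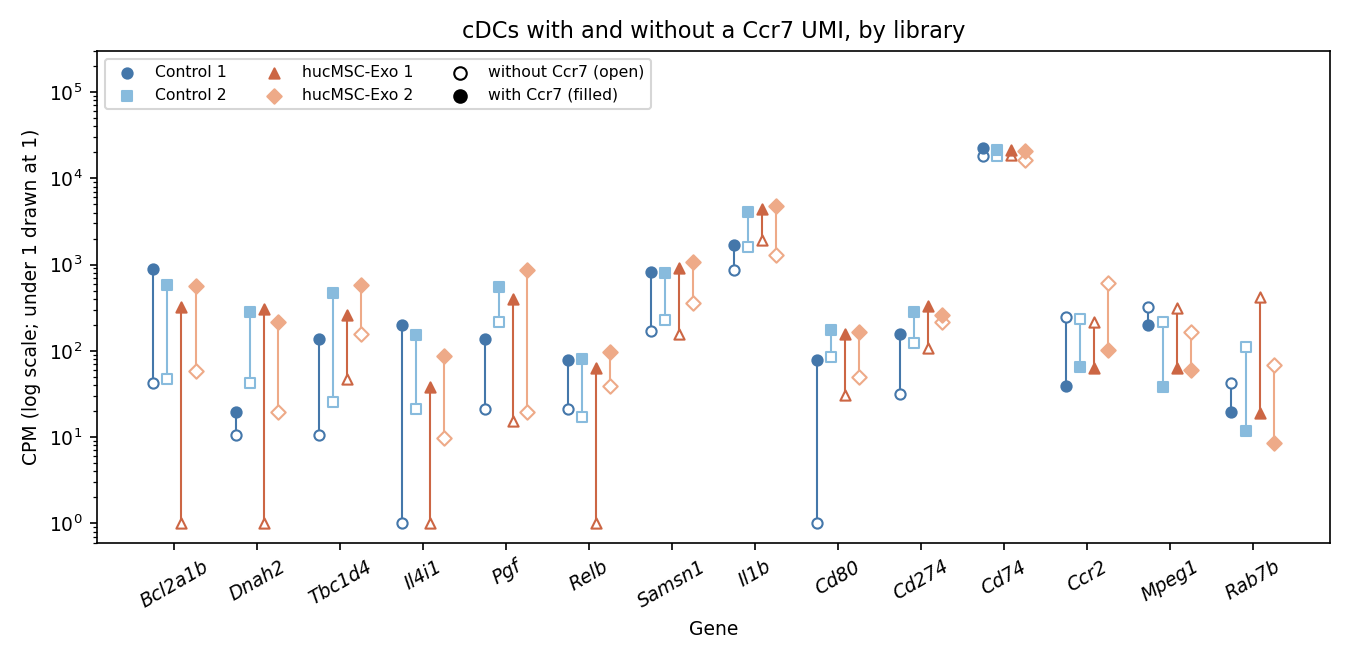
CPM on a log scale for 14 genes in cDCs with Ccr7 (filled) and without it (open), by library, with a line joining the values of 1 library and values under 1 drawn at 1. Relb, Samsn1, Il1b and Cd80 lie higher with Ccr7 in all 4 libraries, Ccr2, Mpeg1 and Rab7b lie lower, and Cd74 is nearly level, at 20981 with Ccr7 and 17731 without over all libraries.

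Sums of cDC UMIs were then compared with those of 3 neighbouring populations of the same libraries, with the library as a block. Both populations of each comparison were cut from the same cells' counts, so genes that travel with the gate genes had to differ, and the gate genes themselves were not tested. The calls describe the gated populations and do not support their names. C1q macrophages had at least 10 UMIs of C1qa, C1qb and C1qc and fewer than 2 of the 6 cDC genes, 768 cells in all (138, 318, 140 and 172 per library). Against them, 2247 of 6277 genes (35.8%) differed at an adjusted p under 0.05, of which 995 (15.9%) were higher and 1252 (19.9%) lower in cDCs. Without Control 2 the count was 1279, and without the 12 cells with plasmacytoid genes it was 2187.

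Lectin-like receptors of the NK gene complex and a set of signalling genes led the cDC side. Klrd1 (GRCm38 chr6:129591782-129598775) was at 138 and 260 CPM in the Control cDCs and 477 and 406 CPM in the hucMSC-Exo cDCs, and at most 8.80 CPM in the macrophages (log2 fold change 7.46 ± 0.41 SE, edgeR quasi-likelihood test, Benjamini-Hochberg adjusted p = 9e-08). Its neighbours Klrk1 (chr6:129610323-129623864), which encodes NKG2D, and Klrb1b (chr6:128813706-128826331) were 4.24 ± 0.41 and 3.76 ± 0.22 higher on the log2 scale. The innate lymphoid and NK list was near 0 in the cDC sums, as given above. Ifitm1, an interferon-induced membrane protein, was at 2309, 4290, 5369 and 5173 CPM against 34.5 to 308, with a log2 fold change of 5.38 ± 0.27. P2ry10, a receptor for lysophospholipids, Arap2, a GTPase-activating protein, and the chromatin organiser Satb1 were 5.08 ± 0.26, 4.87 ± 0.29 and 4.79 ± 0.34 higher. Cd209d (chr8:3871824-3878555), a paralog close to Cd209a (chr8:3743397-3748984), was 6.94 ± 0.36 higher, and Plet1 4.31 ± 0.32. Siglech had 208 UMIs in cDCs against 1 in macrophages (ratio 735, counting interval 130.5 to 29174), and was too rare to be tested without the 12 cells.

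Genes of tissue macrophages led the other side. Pf4, a platelet chemokine that macrophages also make, had 1 UMI in cDCs and 11225 in macrophages (ratio 3176, counting interval 570 to 125457). The chemokine Ccl8 was at 0 to 13.1 CPM in cDCs and 1690 to 4720 CPM in macrophages, a log2 fold change of -9.10 ± 0.26. Apoe, the lipid carrier, was at 545 CPM in Control 1 cDCs and 90.9 to 165 in the others, against 10257 to 19372 in macrophages (log2 fold change -6.19 ± 0.27). The selenoprotein gene Selenop, the growth factor Igf1, the transglutaminase F13a1 and the tetraspan gene Ms4a7 were lower in cDCs, with log2 fold changes of -5.91 to -8.06. The scavenger receptor Msr1 had 1 UMI in cDCs and 820 in macrophages (ratio 232, counting interval 41.5 to 9175), and the lipase Lpl and the chemokine Ccl12 had 3 and 2 UMIs against 1260 and 975. All of these were lower in 4 of 4 libraries.

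The differences are grouped below by function, where 15.9% of all genes were higher in cDCs and 19.9% lower. In the class II pathway outside the rule, 7 of 11 tested genes were higher in cDCs and 3 lower (list median log2 fold change 1.12, against -0.04 over all genes tested). Cd74 was at 18777, 19392, 19900 and 18446 CPM in cDCs and 7034 to 10537 in macrophages (1.29 ± 0.14), and H2-Oa and H2-Ob, which form the modulator H2-O, were 5.84 ± 0.37 and 4.94 ± 0.37 higher. The protease Ctss, which trims the invariant chain, was lower (-1.20 ± 0.17). Of 11 costimulation and checkpoint genes, Cd80, Cd83, Cd86, Havcr2 and Pdcd1lg2 were higher and Cd200r1, Icam1 and Vsir lower. Cd83 was 1.59 ± 0.26 and Cd86 1.38 ± 0.19 higher, and Vsir, an inhibitory ligand, was -3.02 ± 0.26. Among maturation genes outside the rule, 8 of 15 were higher, including Samsn1 at 3.32 ± 0.21, and 4 lower, including the endosomal tetraspanin Cd63. The 8 include Cd80, Cd83 and Cd86, which the costimulation count holds as well.

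Secreted signals went mostly the other way. The counts here stand beside 15.9% of all genes higher in cDCs and 19.9% lower. Of 15 chemokine genes 14 were lower in cDCs (15 without the 12 cells with plasmacytoid genes) and none higher, with a median log2 fold change of -3.71. The neutrophil chemokine Cxcl2 was at 125, 656, 1059 and 733 CPM in cDCs against 3122 to 9620 in macrophages (-2.95 ± 0.33). Among 10 cytokine genes, Ebi3, Il10, Il1rn, Tnf and Vegfa were lower, and Areg and Il1b higher. Il10, an anti-inflammatory cytokine, had no UMI in cDCs and 328 in macrophages, at least 30.9-fold lower. Il1b was 1.19 ± 0.29 higher, in 3 of 4 libraries, the exception being Control 1. Sensing genes were lower for 8 of 13, among them the receptors Tlr2 (-3.86 ± 0.33) and Tlr13 (-3.51 ± 0.49) and the co-receptor Cd14, at 551 to 906 CPM in cDCs against 1194 to 2243, and only Nod2 was higher. Interferon-stimulated genes were lower for 7 of 12, led by Rsad2 at -3.68 ± 0.40, while Bst2 and Ifitm3 were higher. Without the 12 cells with plasmacytoid genes 5 were lower and 1 higher, and the call for Bst2 was lost at a log2 fold change of -0.38.

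Transcription factors and receptors were mixed, where 15.9% of all genes were higher in cDCs and 19.9% lower. Of 15 listed factors, Cbfa2t3 (2.47 ± 0.22), Irf4 (1.75 ± 0.51), Irf5, Nfil3 and Runx3 were higher in cDCs, and Zeb2, a factor of monocytes and cDC2 (-1.74 ± 0.16), and Notch2 lower. Without the 12 cells 6 were higher and 2 lower. Of 21 cDC2 genes outside the rule, 7 were higher, among them S100a4 (1.63 ± 0.24) and Mgl2 (2.68 ± 0.30), and 10 lower, among them Csf1r, Itgam and Sirpa. Of 13 cDC1 genes, 4 were higher, including Cst3 (1.20 ± 0.15), and 3 lower. Among 18 growth factor and homing receptors, 6 were higher and 6 lower (5 lower without the 12 cells). Csf2rb was 1.24 ± 0.21 higher and the G-CSF receptor Csf3r -3.02 ± 0.43. Of 16 immediate early and heat shock genes 8 were lower and none higher, and without the 12 cells 9 were lower and 1 higher.

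Ly6c2 monocytes had at least 2 UMIs of Ly6c2 and 1 of Chil3, a class II sum under 20 and no Csf3r, 90 cells in all. Control 2 and hucMSC-Exo 2 held enough of them for a test (31 and 42 cells). There, 1251 of 3986 genes (31.4%) differed, 557 (14.0%) higher and 694 (17.4%) lower in cDCs. DESeq2 called 428 genes, and edgeR 1061 without the 12 cells with plasmacytoid genes. Genes with no UMI in the monocytes led the cDC side, so their folds are lower bounds set against 3 UMIs over the group. Tbc1d4 was at least 61.9-fold higher (462 UMIs), Cd209d at least 36.4-fold (272 UMIs) and H2-DMb2, part of the peptide exchange factor H2-DM, at least 17.9-fold (134 UMIs). Mgl2 was at 827 and 584 CPM in the cDCs of Control 2 and hucMSC-Exo 2, against 1 UMI in the monocytes (ratio 374, counting interval 67.0 to 14806). Pgf was at 424 and 624 CPM against 2 UMIs (ratio 128, counting interval 35.3 to 1059). Klrd1 had 402 UMIs in cDCs against 1 (ratio 162, counting interval 28.8 to 6395), P2ry10 384 against 1, and Satb1 262 against 2. Siglech and Klk1 were called as well, and both were too rare to be tested without the 12 cells with plasmacytoid genes.

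Inflammatory monocyte genes led the other side. Slpi, a protease inhibitor, was at 14.1 and 10.2 CPM in cDCs against 1063 and 1738 CPM (log2 fold change -6.55 ± 0.34). The matrix proteoglycan Vcan, the complement receptor C5ar1, haptoglobin (Hp) and the activin subunit Inhba lay between -5.99 and -6.47, while F13a1 had 2 UMIs in cDCs against 109 (ratio 136, counting interval 36.7 to 1134) and Rab20 1 against 61. Mgst1, Msr1 and Apoc2 had no UMI in cDCs and were at least 117-fold, 92.1-fold and 75.5-fold lower. Over all genes, 14.0% were higher in cDCs and 17.4% lower. By list, 7 of 10 class II pathway genes were higher, with Cd74 at 4.88 ± 0.34. None of 11 sensing genes was higher and 8 were lower, including Cd14 (-1.98 ± 0.25) and Tlr4 (-3.73 ± 0.63), 9 of 11 interferon-stimulated genes were lower (7 without the 12 cells), and 6 of 8 chemokine genes were lower with only Cxcl16 higher. Csf2rb was 1.39 ± 0.24 higher. Bst2 was higher (0.88 ± 0.25), but at -0.56 and not called without the 12 cells.

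Mature dendritic cells had a class II sum of at least 20, 3 or more of the maturation genes, fewer than 10 C1q UMIs and no Cd3g. None of the 6 cDC genes was required of them. Of the 40 cells, few met the rest of the cDC rule, which took 6 cells with 3 maturation genes and 8 with 4 or 5. The comparison thus differs by gate in the cDC genes as well as in the maturation genes. They numbered 3, 23, 4 and 10 per library, and Control 2 and hucMSC-Exo 2 could be tested. Of 3679 genes, 305 (8.29%) differed, 117 (3.18%) higher and 188 (5.11%) lower in cDCs. DESeq2 called 44, and this comparison rests on 33 mature cells. The number of calls depends on cells and UMIs summed as well as on the size of the differences, so the counts of the 3 comparisons are not ranked by a test.

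Il12b and Ccl5 led the mature side. Il12b, which encodes a subunit of IL-12 and IL-23, was at least 89.6-fold lower in cDCs. In the 2 tested libraries it had no UMI in cDCs and 65 in the mature cells. The chemokine Ccl5 was at 2.56 and 8.16 CPM in cDCs against 1491 and 1007 (log2 fold change -7.91 ± 0.45, edgeR quasi-likelihood test, Benjamini-Hochberg adjusted p = 1.86e-13). Cd63 was at 41.0 and 55.1 CPM against 854 and 774 (-4.05 ± 0.34), and the cytokine signalling suppressor Socs2 and the inhibitory ligand Cd200 were at -4.45 ± 0.46 and -3.93 ± 0.44. Anxa3, Cdc42ep3, Serpinb6b, Cacna1s and Zmynd15 lay between -3.74 and -5.19. Of 18 maturation genes outside the rule, 11 were lower in cDCs (10 without the 12 cells) and none higher (median log2 fold change -1.87, against 0.04 over all genes), among them Relb, at 58.9 and 79.6 CPM against 261 and 307, and Cd40 (-2.28 ± 0.57). The cDC1 factor Batf3 was lower too (-2.82 ± 0.65), at 10.2 and 4.08 CPM against 44.2 and 86.0.

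Of 7 chemokine genes Ccl4, Cxcl2 and Cxcl3 were higher in cDCs and Ccl5 and Cxcl16 lower. Over all genes, 3.18% were higher and 5.11% lower. Cxcl2 was at 656 and 733 CPM against 44.2 and 233 (2.75 ± 0.38), and Cxcl3 at 380 and 449 CPM against 3 UMIs (ratio 41.7, counting interval 14.2 to 203). Itgam had 114 UMIs against 2 (ratio 13.8, counting interval 3.73 to 115), and Spp1, or osteopontin, 134 against 2. Ccr2 was 2.48 ± 0.54 higher on the log2 scale, Ms4a6d 2.79 ± 0.46 and the lectin receptor Clec4e (chr6:123281789-123289870), which senses microbial glycolipids, 2.63 ± 0.64. Of 6 sensing genes Cd14 and Clec4e were higher and none lower. Of 14 growth factor and homing receptors 6 were higher, Csf2rb by 0.87 ± 0.27, and only Kit was lower. Cd74 did not pass the test (0.30 ± 0.18), at 19392 and 18446 CPM against 19717 and 12932. Ly6c2 had no UMI in the mature cells of the 2 tested libraries and was at least 27.5-fold higher in cDCs. Ly6c2, Siglech and Klk1 came mainly from the 12 cells with plasmacytoid genes. Without those cells Bst2 went from 1.45 ± 0.33 to -0.01 and 342 genes were called.

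**Figure D4:**
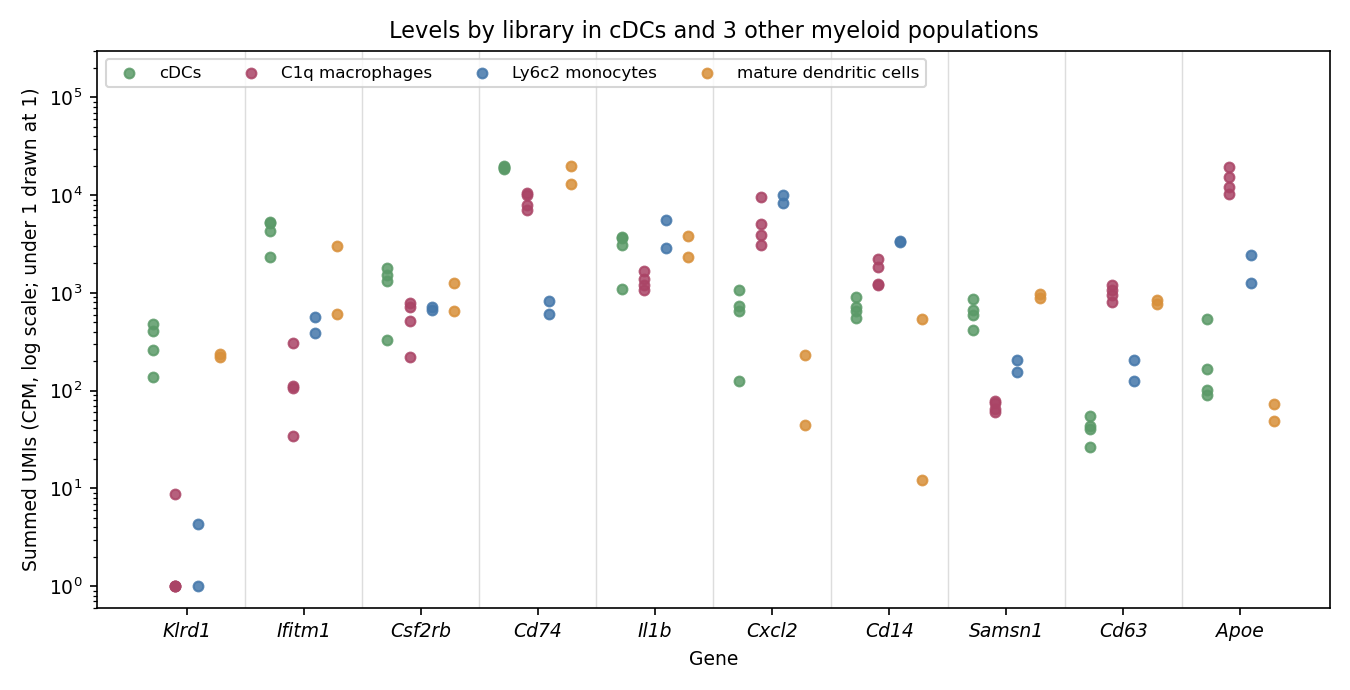
CPM of summed UMIs on a log scale for 10 genes, with 1 point per library, in cDCs and C1q macrophages (4 libraries each) and in Ly6c2 monocytes and mature dendritic cells (2 libraries each), and values under 1 drawn at 1. Klrd1, Ifitm1 and Samsn1 lie above the macrophages and monocytes in the cDCs of every library shown, Cd63 lies below all 3 populations in cDCs, and Apoe lies at 10257 to 19372 in the macrophages.

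The treatment comparison asked which genes the exosomes changed within cDCs. With 2 libraries against 2, no gene passed the test. After Benjamini-Hochberg adjustment, the edgeR quasi-likelihood test called 0 of 3586 genes (0%), with 72 at an unadjusted p under 0.05, and DESeq2 called 0, with 15 at an unadjusted p under 0.05. Without the 12 cells with plasmacytoid genes edgeR also called 0, with 69 at that level. The groups did not overlap for 1081 genes (30.1%), 495 higher and 586 lower in hucMSC-Exo. Leaving out 1 library gave 9 calls without Control 1, 153 without Control 2, 7 without hucMSC-Exo 1 and 2 without hucMSC-Exo 2. The 153 calls set the 16 cells of Control 1 alone against both hucMSC-Exo libraries and assume that Control 1 varies as they do. No gene is therefore said to have changed, and the values below are descriptions.

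The smallest unadjusted p over all genes, 0.00184 by the edgeR test, was that of the transcription factor Klf4 (chr4:55527143-55532466), which is used by a part of the cDC2 lineage. It was at 91.9 and 82.0 CPM in the Control libraries and 286 and 206 CPM in hucMSC-Exo 1 and 2, so the groups did not overlap (log2 fold change 1.54 ± 0.33, edgeR quasi-likelihood test, Benjamini-Hochberg adjusted p = 0.999). Clec4n (chr6:123229843-123247021), the fungal sensor dectin-2, was at 45.9 and 117 CPM against 278 and 265 (1.61 ± 0.41). Nlrp3, an inflammasome sensor, was at 52.5 and 89.6 against 117 and 161 CPM. With these, 3 of 5 sensing genes did not overlap between the groups, all higher in hucMSC-Exo, where 30.1% of all genes did not overlap.

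Cytokine genes followed with 3 of 7 not overlapping, all higher in hucMSC-Exo, where 30.1% of all genes did not overlap. Il1b was at 1089 and 3098 CPM in Control and 3616 and 3735 in hucMSC-Exo (0.82 ± 0.41), and the difference between the 2 Control libraries exceeded that between Control 2 and either hucMSC-Exo library. Il1rn, the IL-1 receptor antagonist, was at 26.2 and 66.6 CPM against 169 and 100 (1.32 ± 0.48), and Osm, or oncostatin M, at 52.5 and 44.8 against 109 and 79.6. Cxcl2 was at 125 and 656 CPM against 1059 and 733. Growth factor and homing receptors did not overlap for 6 of 14 genes, all higher in hucMSC-Exo, among them Ccr1 at 131 and 247 against 317 and 339 CPM. The lectin Cd209d was at 138 and 206 against 469 and 227 CPM. Control 1, with its 16 cells, was the lowest library for each of these genes but Klf4 and Osm. With 1 library left out, the log2 fold change ran from 0.254 to 1.87 for Il1b and from 0.451 to 2.95 for Cxcl2.

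Class I presentation genes did not overlap for 5 of 11, all lower in hucMSC-Exo, against 30.1% of all genes without overlap. Psmb10, an immunoproteasome subunit, was at 177 and 80.7 CPM in Control and 39.1 and 79.6 in hucMSC-Exo, and the peptide transporter gene Tap1 at 138 and 51.2 against 39.1 and 49.0. In each the hucMSC-Exo 2 value lay close to that of Control 2. Irf7, the master factor of type I interferon, was at 125 and 39.7 against 26.0 and 38.8 CPM, and the tubulin gene Tubb5 at 302 and 168 against 135 and 129. Each of 5 genes that respond to IL-4 and IL-13 overlapped between the groups. Other lists gave 4 of 13 maturation genes, 5 of 14 hypoxia and glycolysis genes and 2 of 7 costimulation genes without overlap. They also gave 3 of 9 class II pathway genes, 2 of 6 chemokines, 2 of 7 interferon-stimulated genes and 2 of 5 cell cycle genes. Only 1 of 13 cDC transcription factors, Klf4, and 1 of 15 immediate early and heat shock genes did not overlap. These counts stand beside the same 30.1% over all genes.

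Of 20 listed cDC2 genes 6 did not overlap between the groups, and of 10 listed cDC1 genes 2, against 30.1% of all genes. Cd74 was at 18777, 19392, 19900 and 18446 CPM (0.05 ± 0.10), and S100a4 at 4206, 3757, 2830 and 3775 CPM. Cst3 was at 4612, 5076 and 5130 CPM in the first 3 libraries and 2653 in hucMSC-Exo 2, the library with no cDC1-gated cell. In cDC2-gated cells alone its log2 fold change was 0.05 in place of -0.27. Hspa1a had a log2 fold change of -1.61 ± 1.09 with Control 1 at 1430 CPM, and without that library the fold change was 1.86 and passed the test (adjusted p = 0.00731, edgeR), with Control 2 alone on the Control side and assumed to vary like the others. The direction for this gene rests on 1 library of 16 cells.

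**Figure D5:**
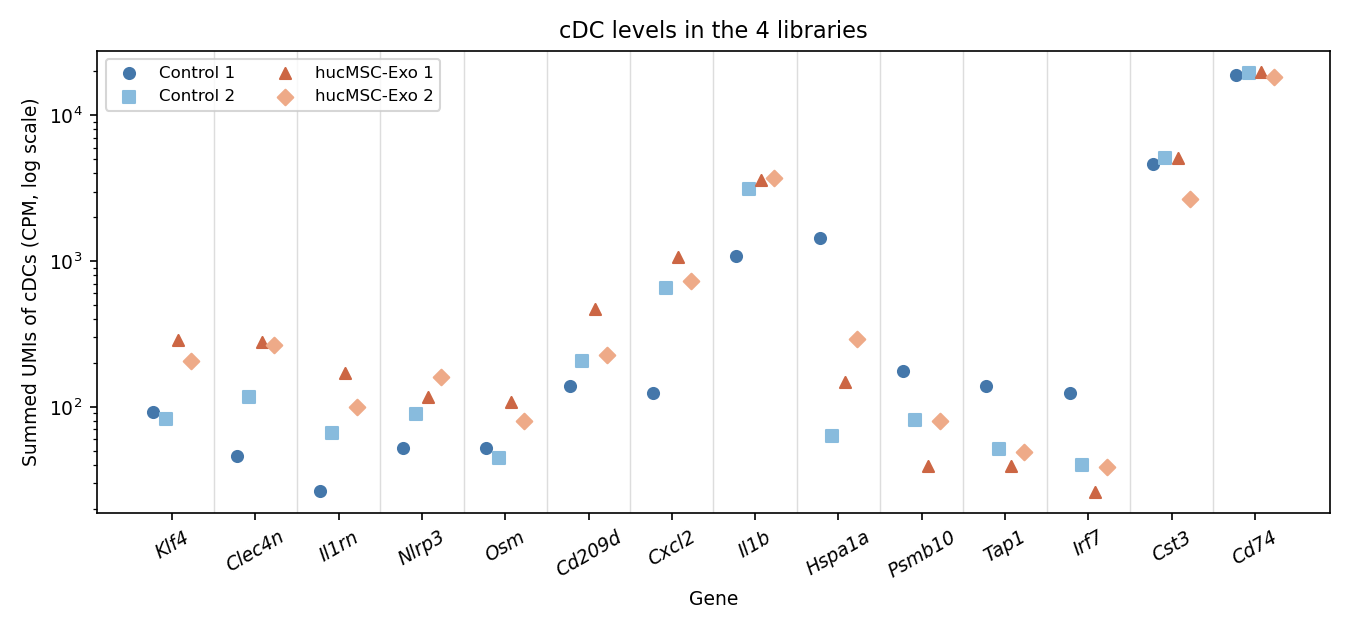
CPM of summed cDC UMIs on a log scale for 14 genes, with 1 point per library and no call between the groups. Klf4 and Clec4n lie above both Control libraries in both hucMSC-Exo libraries, Hspa1a is set apart by Control 1 at 1430, and Cd74 is nearly level.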

How the data were processed

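Single-cell suspensions from periwound skin were sequenced with a droplet 3′ kit after removal of dead cells. The deposited count matrices hold the authors' UMI counts per gene and cell, made per the labels with Cell Ranger 6.1.2 and mm10. The authors filtered cells with Seurat and DoubletFinder. The deposited matrices still held 531 cells with over 3000 genes and 40 to 69 per library over the mitochondrial limit, so that filter had not been applied to them. Whether doublets had been removed is not given in the sources used here. The paper states that its Ptprc-positive immune cells were set apart by computation. Whether the matrices hold that selection is not stated. Their comparisons treated cells as replicates. Here the UMIs of each population were summed per library, over the 19001 symbols found in all 4 matrices. In the treatment comparison p-values measure the spread between libraries of single mice. Between populations they measure how the difference within a library varies across libraries, of which the monocyte and mature comparisons had 2. Counts were fitted with edgeR 4.0.16 (quasi-likelihood test, TMM, filterByExpr, Benjamini-Hochberg adjusted p under 0.05), the library being a block where populations were compared (at least 10 cells of each in a library) and not in the treatment comparison, and repeated with DESeq2 1.42.0. The 19 genes of the rule, and 3 more for the monocytes, were left out of the adjustment. CPM is a gene's share of the UMIs summed over a population in a library.

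The members, gene lists and tests were chosen with earlier results of these data known. Genes were named as the 10 largest changes in each direction among those called, the same way in every library and with a mean of at least 50 CPM, plus up to 4 examples of each list. In the splits of the cDCs, which had no test, genes were named from the largest folds, the lists and the markers after their values were seen. A fold against 0 UMIs uses 3 UMIs for the group at 0. Doublets were not removed from the main counts. Leaving out the 10% of cells with the highest Scrublet score was an alternative, which took 3 and 9 Control and 2 and 10 hucMSC-Exo cDCs. The fits were tested on simulated data. Gene positions are from GENCODE on GRCm38. The letters in the matrix names were not used for grouping.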

Additional observations from a re-analysis of the deposited data

Results flagged for a closer look

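The limit of 3000 genes per cell left out 24 cells that met every other part of the cDC rule, 6 in Control 1, 12 in Control 2, 3 in hucMSC-Exo 1 and 3 in hucMSC-Exo 2. They are outside the comparisons above. By the subset gates, 7 of the 24 were cDC1-gated and 15 cDC2-gated, against 13 and 140 of the 160 cDCs under the limit. Ccr7 was found in 10 of them, and Mki67 or Top2a, which are made by dividing cells, in 14, against 17 of the 160 cDCs. Their median UMIs were 16397 to 20557 per library. A cell with more UMIs has a higher chance of showing any gene, and how far depth or doublets account for these cells was not tested.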

How the results depend on the processing

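For the treatment comparison, the count of 0 genes became 2 with no filter on low counts and 2 to 153 with 1 library left out. The fit with the replicate number as a block also called 0 genes, with 99 at an unadjusted p under 0.05. That block was fitted for the treatment comparison only. With no library block, 1964 genes in place of 2247 were called against macrophages. Against monocytes 1168 in place of 1251 were called, and against mature cells 220 in place of 305. The deviations of same-numbered libraries had a correlation of 0.044. With 2 libraries per group the crossed value, -0.044, is its negative by construction and adds nothing. Whether same-numbered libraries share a batch was not tested. The macrophage comparison gave 1279 to 2264 genes with 1 library left out, and DESeq2 gave 428 in place of 1251 for the monocytes and 44 in place of 305 for the mature cells. The difference in cDC share was 0.927 percentage points with class II cells as the denominator (two-sided exact permutation test, p = 0.667) and -1.04 to 0.512 with 1 library left out, and that in cDC1-gated share -11.5 to 3.91. Log2 fold changes that turned were, for treatment, Cd74 (-0.00808 to 0.144 with 1 library left out, -0.00646 without hucMSC-Exo 1), Cst3 (-0.829 to 0.161 with 1 library left out, 0.0469 in cDC2-gated cells) and Hspa1a (-2.54 to 1.86 with 1 library left out). Bst2 turned to -0.199 against macrophages and -0.595 against monocytes without likely doublets, and to -0.38, -0.56 and -0.00946 against the 3 populations without the cells with plasmacytoid genes, an alternative chosen after the values were seen. The cause was not tested. Not possible were cDC1-gated against cDC2-gated cells under any setting, leaving out a library for monocytes and mature cells, and the doublet alternative for mature cells. The small number of cDCs in Control 1, 16 cells, limits each comparison that uses it.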

Other observations

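The lectin gene Mgl2 divided the cDC2-gated cells. Without the 12 cells with plasmacytoid genes, 84 cDC2-gated cells had Mgl2 (3 in Control 1, 38 in Control 2, 10 in hucMSC-Exo 1 and 33 in hucMSC-Exo 2) and 47 had none (10, 15, 10 and 12), with median UMIs of 11167.5 and 9399. The split was chosen after the values were seen, and the values are a description with no test. Cd209d was at 296 CPM in the cells with Mgl2 against 78.6, and Cish, a suppressor of cytokine signalling that STAT5 induces, at 113 against 38.2. Serpinb9, an inhibitor of granzyme B, was at 76.7 CPM against 24.7 and N4bp1 at 95.3 against 31.4. Each of these was higher with Mgl2 in 4 of 4 libraries. Mrc1, the mannose receptor, was at 279 CPM against 98.8 and higher in 3 of 4 libraries. Lst1, at 31.8 CPM against 110, was lower with Mgl2 in 4 of 4 libraries. Apoe was at 82.2 CPM against 278, with most of the gap from Control 1 (0 against 903), while the other libraries had 83.0 against 96.5, 153 against 200 and 71.1 against 77.9. Heat shock genes, among them Hspa1a at 153 CPM against 499, were also lower with Mgl2 over all cells, and Hspa1a was lower in 1 of 4 libraries.

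Of the 74 UMIs of Cd207, the lectin of Langerhans cells, 63 came from 1 cell of Control 2 that had no Ccr7.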
